A study of Mus musculus with 24 samples.

Results

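The Src family kinases are membrane-anchored tyrosine kinases, and 7 of their genes, Fgr, Lyn, Fyn, Lck, Src, Yes1 and Blk, were taken by symbol from a count table of 24421 genes. All 7 were in the table and all 7 passed the filter on low counts, which kept 12742 genes. RNA-seq had been done on bone marrow mononuclear cells of mice carrying Shp2 E76K, a mutation that activates the tyrosine phosphatase SHP2 (gene Ptpn11) and serves as a model of juvenile myelomonocytic leukemia. For 3 weeks the mice received ACP196 alone (a BTK inhibitor, replicates 4 to 6), ACP319 alone (an inhibitor of the p110δ catalytic subunit of PI3K, replicates 7 to 9), both compounds (the combination, replicates 10 to 12) or vehicle (replicates 1 to 3). Every group, vehicle included, carries Shp2 E76K, and there are 3 specimens per group. The sources used here give no strain, no age and no tissue in which the allele is active. Whether every specimen number stands for its own mouse is not stated, and the p-values cover the spread among specimens, which may be technical in part. Each group holds specimens with and without Y-linked transcripts, so the specimens of a group do not all come from 1 mouse.

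Src family kinases phosphorylate the paired tyrosines of ITAM receptor chains, which then recruit SYK, and in B cells and myeloid cells they act upstream of both BTK and PI3K p110δ. They are held inactive when CSK, brought to the membrane by anchors such as PAG1, phosphorylates their tail tyrosine, and they are released by phosphatases such as CD45. SHP2 can favour the active state by removing the phosphate that docks CSK on PAG1. Fgr and Lyn are prominent in myeloid cells, Lck and Fyn serve the T cell receptor, and Blk is largely a kinase of the B lineage. The comparisons below ask whether inhibiting BTK, PI3K p110δ or both is accompanied by a different transcript level of these kinases. Transcript levels do not measure kinase activity.

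The specimens had 8993950 to 22154833 counts. BTK inhibitor replicate 5 stood apart, with the lowest total and with the ribosomal RNA precursor Rn45s taking 15.4% of the library, and BTK inhibitor replicate 6 differs from the other specimens in the day in its title, 30 in place of 24. Y-linked transcripts summed to 158, 132 and 0 CPM in vehicle replicates 1, 2 and 3. In the treated groups they reached 134 CPM in replicate 4 (BTK inhibitor), 104 in replicate 8 (PI3K inhibitor) and 181 in replicate 11 (combination). The other treated specimens had 0.22 CPM or less, so the groups were not balanced for these transcripts. Libraries also differed in how strongly expression followed gene length. The slopes, in log2 per doubling of length, were -0.35 to 0.18 with the BTK inhibitor and -0.38 to -0.098 with the PI3K inhibitor. They were 0.093 to 0.29 with the combination, against 0.12 to 0.40 with vehicle. Every PI3K inhibitor library thus lay below every vehicle library in this slope. Ptprc (CD45), a marker of blood cells, was at 354 to 728 CPM with the BTK inhibitor, 318 to 555 CPM with the PI3K inhibitor and 596 to 670 CPM with the combination, against 658 to 1006 CPM with vehicle. The PI3K inhibitor specimens were all below the vehicle specimens for Ptprc, as they were for Fgr and Lyn, and its part in those values was not tested. Neutrophil markers summed to 64292 CPM or more in every specimen, and erythroid markers to 791 CPM or more, so granulocyte and erythroid transcripts were present in this mononuclear preparation. In bulk RNA, fewer cells of a type and less RNA per cell cannot be told apart.

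Fgr and Lyn made up most of the family's transcripts. Levels are compared between genes as CPM (read counts scaled to library size) per kilobase of exon. Over all 12 specimens Fgr averaged 73.7 ± 21.1 CPM per kb (SD, n = 12) and Lyn averaged 53.8 ± 13.8 CPM per kb. Fgr was above Lyn in 12 of 12 specimens. Fyn followed at 6.91 ± 1.76 CPM per kb and Lck at 6.08 ± 1.41 CPM per kb, and these neighbours differed by less than their spread, with Fyn above Lck in 9 of 12 specimens. Blk averaged 3.39 ± 1.24 CPM per kb and lay below Lck in 11 of 12 specimens. Src, at 0.347 ± 0.115 CPM per kb, and Yes1, at 0.0798 ± 0.0375 CPM per kb, were the lowest members in every specimen. The order of the Fyn and Lck means differed between groups. Lck was above Fyn on average with the BTK inhibitor, in 2 of 3 specimens. With the PI3K inhibitor the Lck mean was barely higher (6.13 against 5.94 CPM per kb), with Lck above Fyn in 1 of 3 specimens. Fyn was above Lck in 3 of 3 specimens in the combination group and likewise with vehicle.

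**Figure D1:**
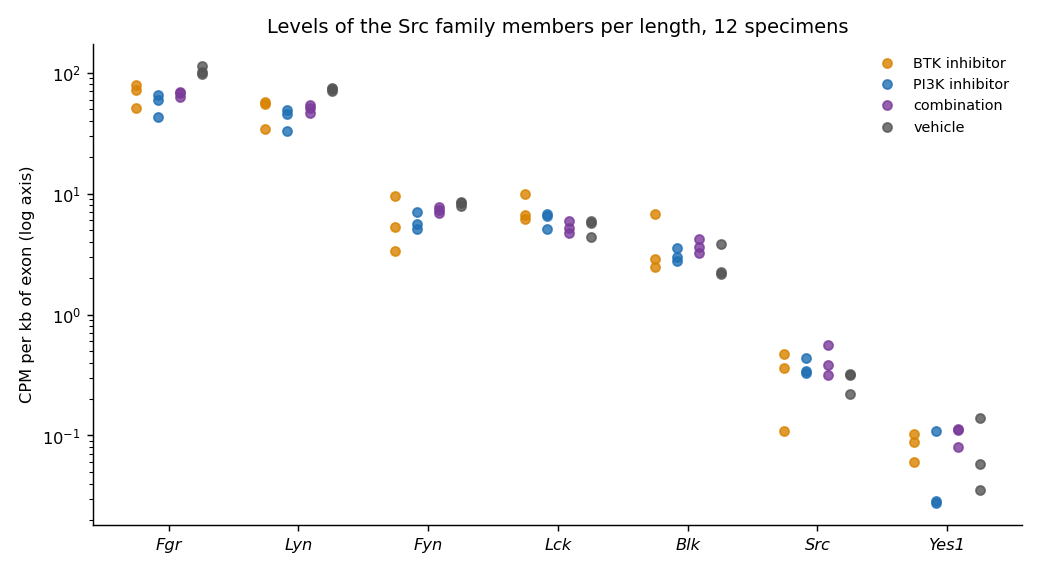
CPM per kb of exon (log axis) for each Src family member, with 1 point per specimen coloured by group. Fgr and Lyn lie about an order of magnitude above Fyn, Lck and Blk, and Src and Yes1 lie lowest.

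Summed over the 7 members, the family stood at 134 ± 28.3 CPM per kb with the BTK inhibitor, 114 ± 21.2 with the PI3K inhibitor and 134 ± 5.39 in the combination group, against 194 ± 8.78 CPM per kb with vehicle (SD, n = 3 each). The lowest vehicle specimen, at 186 CPM per kb, was above the highest treated specimen, at 153 CPM per kb. Fgr and Lyn together held 86.3% ± 3.61 of this sum with the BTK inhibitor, 86.2% ± 2.01 with the PI3K inhibitor and 87.5% ± 0.459 in the combination group, against 91.4% ± 1.11 with vehicle. The share of Lck was 6.06% ± 3.12 with the BTK inhibitor, 5.38% ± 0.248 with the PI3K inhibitor and 3.94% ± 0.331 in the combination group, against 2.77% ± 0.531 with vehicle. These sums and shares were not tested, and neither was the part of the libraries' length slopes in them. Lck has 2298 bases of exon and Blk 2475, against 3342 for Fgr and 3456 for Lyn.

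Fgr, a myeloid kinase that acts downstream of integrins and Fc receptors, was lower with the PI3K inhibitor. It lies on the plus strand at chr4:132974095-133001882 (mm10, as in the deposited table), with 13 exon blocks. Fgr stood at 219.5, 198 and 145 CPM with the PI3K inhibitor, against 381, 341 and 326 CPM with vehicle. No PI3K inhibitor specimen reached the lowest vehicle specimen. The log2 difference was -0.90 ± 0.25 (SE), a fold of 0.537, with a Benjamini-Hochberg adjusted p = 0.0429 over all tested genes (edgeR, quasi-likelihood). With the BTK inhibitor Fgr stood at 264, 171 and 241 CPM, and with the combination at 211, 230.3 and 229 CPM. All 6 of these specimens were also below the lowest vehicle specimen. How many of all tested genes lie below vehicle in every treated specimen was not counted. Neither difference passed: the BTK inhibitor gave a log2 difference of -0.63 ± 0.25 with an edgeR adjusted p = 0.158, and the combination gave -0.65 ± 0.25 with an edgeR adjusted p = 0.875.

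The Fgr call with the PI3K inhibitor sits close to the threshold. It ended without a filter on low counts (log2 -0.92, edgeR adjusted p = 0.0540), with a gene length offset (-0.72, 0.0992) and when the presence of Y-linked transcripts was a covariate (-0.84, 0.0740). Leaving out 1 specimen ended it for vehicle replicate 1 (edgeR adjusted p = 0.121), 2 (0.134) or 3 (0.0667), for PI3K inhibitor replicate 8 (0.114) or 9 (0.209), and for combination replicate 10 (0.0622), 11 (0.0663) or 12 (0.0689). In each of these 8 fits, with the length offset and with the Y-linked covariate, edgeR called 0% of all genes, so the loss was not particular to Fgr there. Without the filter it called 7.33% of all genes. Over all 24 alternatives the log2 difference lay between -1.02 and -0.72, and 13 of the 24 kept the call. These 13 include the fit without hemoglobin genes, which repeats the reported fit because none of those genes passed the filter.

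**Figure D2:**
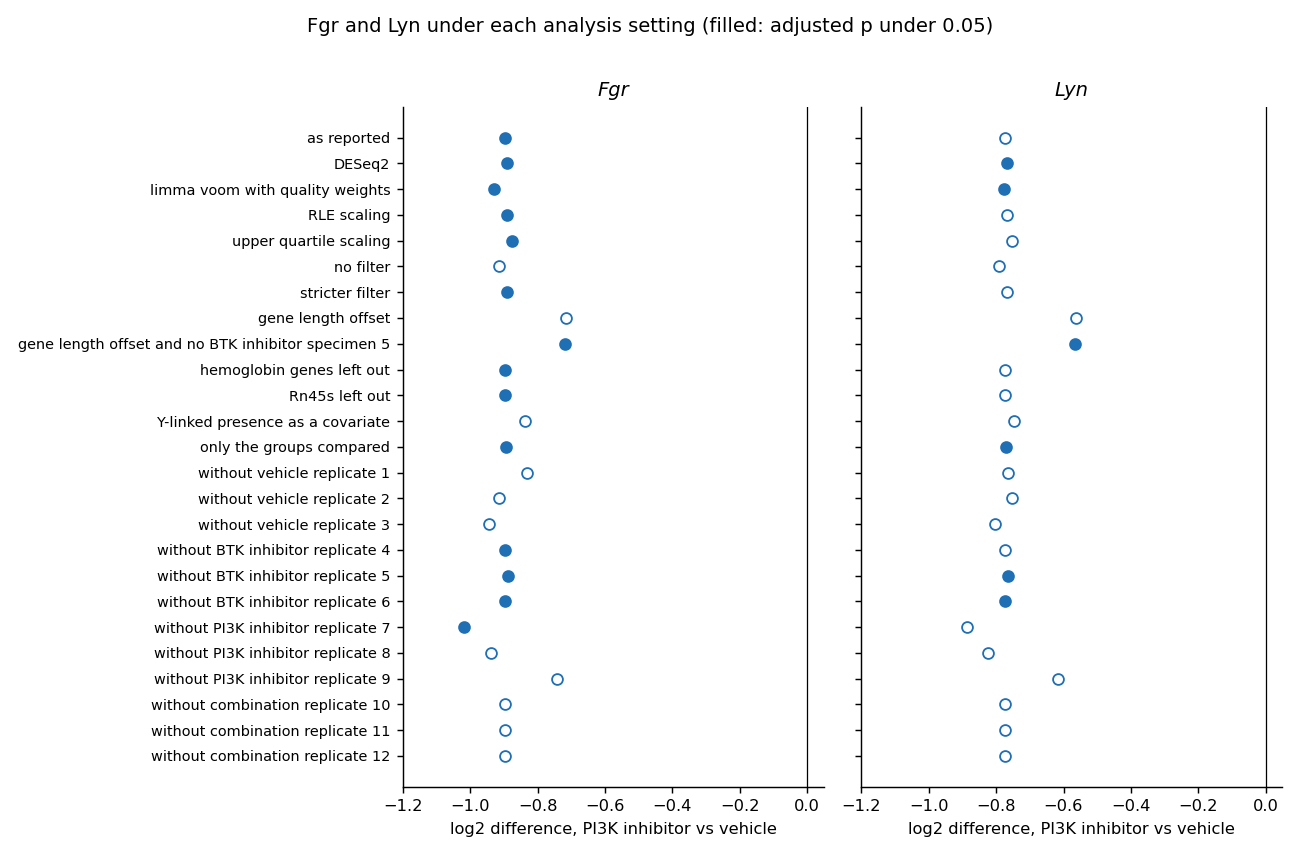
Log2 differences of Fgr (left) and Lyn (right) between the PI3K inhibitor and vehicle, as reported (top) and under each of 24 alternatives, with filled points for an adjusted p under 0.05. Fgr stays between -1.02 and -0.72 and Lyn between -0.89 and -0.56, while the calls come and go with the setting.

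The promoter of Fgr, the member that passed the test, is shown with both start regions of Lck, a member that was not lower, so that the sequences can be compared. Each line gives the 250 bases before the start, 5′ to 3′ on the gene's strand, from RefSeq on GRCm38.p6, and capitals mark GGAAGT, a core that ETS factors such as PU.1 bind. This motif was chosen after the sequences were seen. The regions are chr4:132973845-132974094 (plus strand) for Fgr, chr4:129573642-129573891 (minus strand) for the distal Lck start and chr4:129558373-129558622 (minus strand) for the proximal one.
Fgr: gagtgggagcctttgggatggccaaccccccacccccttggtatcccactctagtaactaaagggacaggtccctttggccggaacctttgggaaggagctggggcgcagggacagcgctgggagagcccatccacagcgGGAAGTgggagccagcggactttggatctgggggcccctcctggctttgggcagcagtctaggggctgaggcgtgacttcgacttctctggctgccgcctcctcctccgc
Lck, distal start: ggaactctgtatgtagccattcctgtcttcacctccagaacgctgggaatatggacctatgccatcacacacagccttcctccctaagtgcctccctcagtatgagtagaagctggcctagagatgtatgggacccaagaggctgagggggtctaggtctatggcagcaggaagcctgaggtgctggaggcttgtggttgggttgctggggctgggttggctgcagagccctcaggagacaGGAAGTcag
Lck, proximal start: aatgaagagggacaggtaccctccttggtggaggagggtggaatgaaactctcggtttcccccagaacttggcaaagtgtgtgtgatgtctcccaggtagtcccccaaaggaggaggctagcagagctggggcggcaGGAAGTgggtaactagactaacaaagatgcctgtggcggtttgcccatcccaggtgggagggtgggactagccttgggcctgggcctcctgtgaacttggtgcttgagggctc
The match begins 110 bases before the start of Fgr, 9 before the distal and 113 before the proximal start of Lck. GGAAGT on either strand is held by 19.7% of 32851 promoter windows of this length, and the windows of Fyn, Src and Yes1 do not hold these letters. The GC content was 64.4% for Fgr, 56.4% for the distal and 58% for the proximal Lck window, and 52.4% at the median of all windows. The promoter table matched 5 of the 7 members, and Lyn and Blk were not matched.

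Lyn, which in B cells and myeloid cells phosphorylates both activating ITAM and inhibitory ITIM receptors, followed Fgr closely. It lies at chr4:3678121-3791612 (mm10, plus strand). Lyn stood at 171, 158 and 114 CPM with the PI3K inhibitor, against 255, 259 and 242 CPM with vehicle, and the groups did not overlap. Its log2 difference of -0.77 ± 0.26 missed the threshold (edgeR adjusted p = 0.0611). With the BTK inhibitor Lyn stood at 189.6, 119 and 199 CPM, a log2 difference of -0.58 ± 0.26 from vehicle (edgeR adjusted p = 0.191). With the combination it stood at 177, 159.9 and 186 CPM, a difference of -0.53 ± 0.25 (edgeR adjusted p = 1.00). All 9 treated specimens were below the lowest vehicle specimen, a pattern whose share over all tested genes was not counted.

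Lyn with the PI3K inhibitor passed in 6 of 24 alternatives. These were DESeq2 (adjusted p = 0.0146), limma voom (0.00630), edgeR on the groups compared alone (0.0288), edgeR with the length offset and no BTK inhibitor replicate 5 (0.0411), and edgeR without BTK inhibitor replicate 5 (0.0130) or 6 (0.0369). In that order these settings called 25% (DESeq2), 37.4% (limma voom), 32.9%, 18.1%, 33.8% and 26.2% of all genes. An opposite-strand noncoding gene, Gm26857, overlaps 244 exon bases of Lyn (7.06% of its length, GENCODE M21), and reads of the pair cannot be told apart because the libraries do not mark strand.

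**Figure D3:**
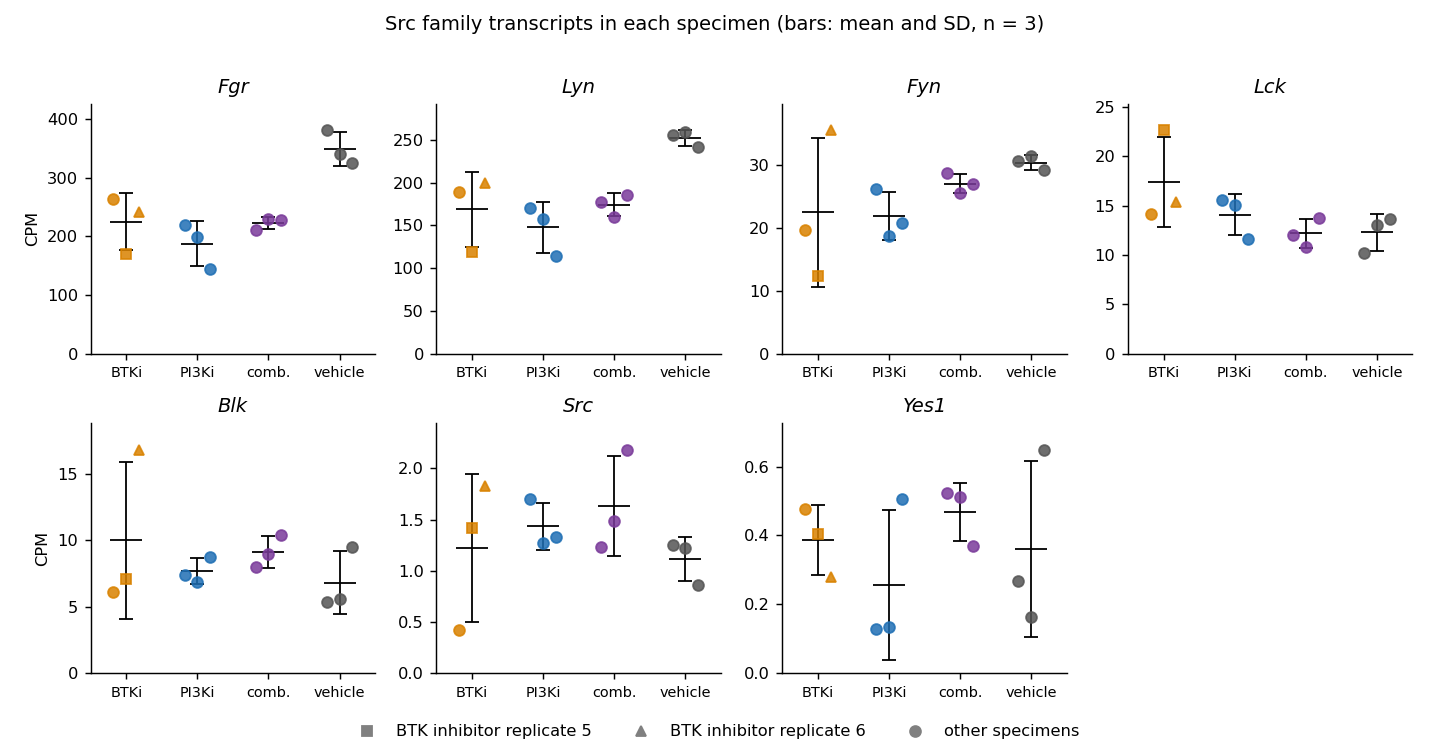
CPM of the 7 members in each specimen, by group, with bars for the mean and SD (n = 3); squares and triangles mark BTK inhibitor replicates 5 and 6. For Fgr and Lyn all treated specimens sit below the vehicle specimens, while Lck, Blk, Src and Yes1 overlap in most groups.

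Fyn, a widely used member that serves T cell, mast cell and integrin receptors, lay lower than vehicle in 2 of the 3 treated groups and was uneven in the third. It lies at chr10:39369799-39565374 (mm10, plus strand). Fyn stood at 26.2, 18.7 and 20.8 CPM with the PI3K inhibitor and at 28.7, 25.6 and 26.9 CPM with the combination, against 30.7, 31.4 and 29.2 CPM with vehicle. Neither group overlapped vehicle, and neither difference passed: the log2 differences were -0.47 ± 0.31 (edgeR adjusted p = 0.292) and -0.17 ± 0.31 (edgeR adjusted p = 1.00). With the BTK inhibitor Fyn stood at 19.7, 12.3 and 35.5 CPM, so that replicate 6, the specimen of the other title date, was above every vehicle specimen and replicates 4 and 5 were below them. The log2 difference was -0.42 ± 0.32 (edgeR adjusted p = 0.408). Without replicate 6 it was -0.91 and passed (edgeR adjusted p = 0.0248), in a fit that called 29.4% of all genes, and without replicate 5 it was -0.14 (edgeR adjusted p = 0.803).

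Lck, the kinase that starts T cell receptor signalling, was the member that lay higher than vehicle with the BTK inhibitor without overlap. It lies at chr4:129548344-129573641 (mm10, minus strand). Lck stood at 14.1, 22.6 and 15.4 CPM with the BTK inhibitor, against 10.2, 13.03 and 13.7 CPM with vehicle. The highest value was that of replicate 5. The log2 difference was 0.49 ± 0.26 (edgeR adjusted p = 0.249), and without replicate 5 it was 0.27 (edgeR adjusted p = 0.587). Lck stood at 15.5, 15.1 and 11.7 CPM with the PI3K inhibitor and at 12.0, 10.8 and 13.7 CPM with the combination, and both groups overlapped vehicle. The T cell receptor chains Cd3e and Cd3d lay far apart, at 1.21 to 7.81 CPM and 5.88 to 276 CPM over the 12 specimens, and the coreceptors Cd4 and Cd8a were at 2.23 to 8.23 CPM. The 14 T cell markers in the table summed to 66.4 to 335 CPM with the BTK inhibitor, against 92.8 to 201 CPM with vehicle, and none of the 14 passed in any comparison between groups. Their part in the Lck values was not tested.

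Blk, a kinase linked to the B cell receptor, overlapped vehicle in all 3 treated groups. It lies at chr14:63372837-63417187 (mm10, minus strand). Blk stood at 6.11, 7.07 and 16.8 CPM with the BTK inhibitor, 7.38, 6.88 and 8.74 CPM with the PI3K inhibitor and 7.98, 8.96 and 10.4 CPM with the combination, against 5.32, 5.59 and 9.504 CPM with vehicle. Replicate 6 of the BTK inhibitor group held the highest value. The log2 differences from vehicle were 0.57 ± 0.38, 0.17 ± 0.38 and 0.42 ± 0.37 in that order, with edgeR adjusted p-values of 0.344, 0.764 and 1.00. Without BTK inhibitor replicate 6 the first of these was -0.06.

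Src, the founding member, which many cell types use, and Yes1, its close and likewise widespread relative, were near the lower end of detection. Src, at chr2:157424293-157471838 (mm10, plus strand), had 7 to 59 counts per specimen. It stood at 0.425, 1.41 and 1.83 CPM with the BTK inhibitor, 1.70, 1.27 and 1.33 CPM with the PI3K inhibitor and 1.23, 1.49 and 2.18 CPM with the combination, against 1.25, 1.23 and 0.864 CPM with vehicle. The PI3K inhibitor specimens were narrowly above all vehicle specimens, at a log2 difference of 0.37 ± 0.47 (edgeR adjusted p = 0.586), and the other groups overlapped vehicle. Yes1, at chr5:32611171-32687066 (mm10, plus strand), had 2 to 15 counts per specimen and 0.127 to 0.648 CPM, the lowest in PI3K inhibitor replicate 7 and the highest in vehicle replicate 3. It overlapped vehicle in all groups. Differences of the size seen for Fgr would not be detectable for Yes1 at this depth, since the SE of its log2 differences from vehicle was 0.60 to 0.66. Gm10461, an opposite-strand gene, shares 635 exon bases with Yes1 (13.8% of its length, GENCODE M21).

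**Figure D4:**
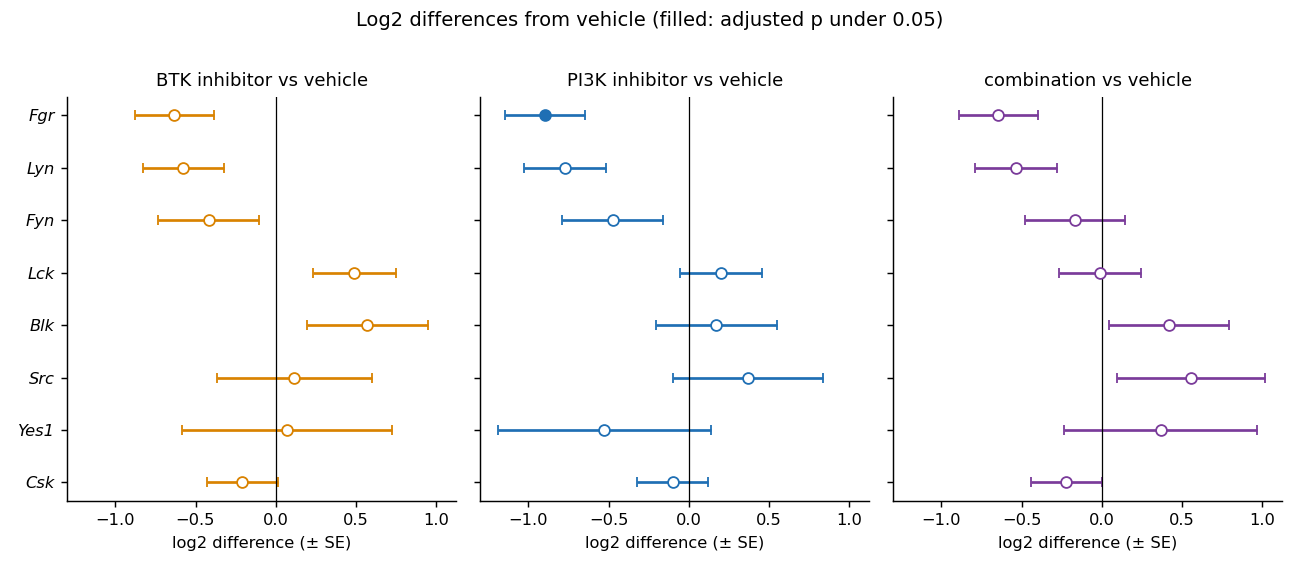
Log2 differences from vehicle with their SE for the 7 members and Csk, 1 panel per treatment, with filled points for an adjusted p under 0.05. Fgr with the PI3K inhibitor, at -0.90, is the filled point, and Fgr and Lyn lie below 0 in all 3 panels.

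Read against all tested genes, the members' counts with the PI3K inhibitor were near the background. There 1 of 7 members was called, against 10.7% of all tested genes (5.82% lower), and 4 of 7 did not overlap vehicle, against 51.2% of all genes. Unadjusted p-values under 0.05 were seen for 2 of 7 members and 35.7% of all genes. With the BTK inhibitor edgeR called 0 of 7 members and 0% of all genes, 2 of 7 members had an unadjusted p under 0.05, against 24.7% of all genes, and 3 of 7 did not overlap vehicle, against 18.5%. With the combination edgeR called 0 of 7 members and 0% of all genes, 1 of 7 members had an unadjusted p under 0.05, against 4.91% of all genes, and 3 of 7 did not overlap vehicle, against 18.8%. With these treatments the members' share without overlap was above that of all genes, a difference that was not tested. With the BTK inhibitor DESeq2 and limma voom also called 0 members, against 8.56% and 23.2% of all genes. With the combination DESeq2 called 0 members, against 0.173% of all genes, and limma voom called 2, Fgr and Lyn, against 9.66% of all genes. The median log2 difference of the 7 members was 0.07 with the BTK inhibitor, -0.47 with the PI3K inhibitor and -0.01 in the combination group, beside medians of -0.02, -0.01 and 0.0015 over all tested genes.

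The combination was also set against each single compound, to ask what the second inhibitor adds. In the combination against the BTK inhibitor, 0 of 7 members and 0% of all genes were called by edgeR, with 0 members and 20.2% of all genes under an unadjusted p of 0.05, and 1 of 7 did not overlap (14.8% of all genes). That member was Lck, with a log2 difference of -0.50 ± 0.26 (edgeR adjusted p = 0.279), and without BTK inhibitor replicate 5 this was -0.26. For Fgr the log2 difference was -0.01 ± 0.25 and for Lyn 0.04 ± 0.25. In the combination against the PI3K inhibitor, 0 of 7 members and 0% of all genes were called by edgeR, with 0 members and 28.7% of all genes under an unadjusted p of 0.05, and 0 of 7 did not overlap (51.1% of all genes). Fgr was 0.25 ± 0.25 and Lyn 0.24 ± 0.25 higher on the log2 scale in the combination than with the PI3K inhibitor, which is within 1 SE of 0 for Lyn. In the combination against the BTK inhibitor DESeq2 called 0 members and 4.2% of all genes, and limma voom called 1 member, Src (log2 1.71, adjusted p = 0.0107), and 39% of all genes. In the combination against the PI3K inhibitor both called 0 members, against 7.52% of all genes by DESeq2 and 41.8% by limma voom.

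The interaction asks whether the combination differs from the sum of the single effects. It is the combination minus the PI3K inhibitor, less the BTK inhibitor minus vehicle, and a positive value means that the combination was higher than that sum. EdgeR called 0 of 7 members, against 27.6% of all tested genes, with 2 of 7 members and 43.1% of all genes under an unadjusted p of 0.05. The values were 0.88 ± 0.35 for Fgr (edgeR adjusted p = 0.0724), 0.81 ± 0.36 for Lyn (0.102), 0.72 ± 0.45 for Fyn (0.228) and -0.70 ± 0.36 for Lck (0.156). DESeq2 called Fgr (0.85, adjusted p = 0.0327) among 35.7% of all genes, and limma voom called Fgr, Lyn and Fyn among 52.8%. EdgeR without BTK inhibitor replicate 6 called Fyn (1.21, adjusted p = 0.0148) among 44% of all genes. In the test for any difference among the 4 groups edgeR called 0 members and 0% of all genes, 2 of 7 members and 30.6% of all genes had an unadjusted p under 0.05, and Fgr had the smallest adjusted p, at 0.102. Fgr passed that test without BTK inhibitor replicate 5 (edgeR adjusted p = 0.0469, with 10.7% of all genes) or 6 (0.0463, with 31.8%). DESeq2 called Fgr (0.0104) and Lyn (0.0476) there among 24.4% of all genes, and limma voom called Fgr, Lyn and Src among 52.5%.

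Fgr and Lyn varied together from specimen to specimen. The correlation of their log2 CPM was 0.965 over the 12 specimens, and 0.91 for deviations from the group means, a description over specimens that share groups and a range of depths. The genes most like Fgr were Slc28a2 (r = 0.97), Asb7 (0.97) and the actin-bundling gene Lcp1 (0.96), among the 9544 genes averaging 2 or more on the log2 CPM scale. Those most like Lyn were Lcp1 (0.99), Plek (0.98), a platelet and leukocyte PKC substrate, and Rassf5 (0.98), a regulator of integrin adhesion. For Fyn they were Exoc7, Lima1 and Ifih1 (0.97 to 0.98), and for Lck Nrgn, Gimap1 and Naa50 (0.91 to 0.93). For Blk they included Cd79a (0.88) and Pou2af1 (0.87), both of them B-lineage genes. For the low members the values were smaller, at 0.77 to 0.80 for Src (Asph, Fam214a and Jmjd4) and 0.69 to 0.85 for Yes1 (Azin1, Letm2 and Rbak).

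Of 15 monocyte markers, 4 were called lower and 0 higher with the PI3K inhibitor, where 5.82% of all tested genes were called lower and 4.84% higher, with 14 of 15 below 0 and a median log2 difference of -0.83. None of the 15 was called with the BTK inhibitor (median -0.22) or the combination (median -0.43). Their summed level was 4028 to 12763 CPM with the BTK inhibitor, 7393 to 7970 CPM with the PI3K inhibitor and 6131 to 8249 CPM with the combination, against 6898 to 11067 CPM with vehicle, so the sums overlapped vehicle in all 3 treated groups. Their mean log2 CPM correlated with that of Fgr and Lyn at 0.88 each over the 12 specimens, and at 0.66 and 0.69 within groups. The within-group values were not particular to monocytes. The eosinophil, basophil and mast cell markers reached 0.67 with Fgr and 0.66 with Lyn within groups, beside -0.05 and -0.002 over the 12 specimens.

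The neutrophil list gave smaller values than the monocyte list. Neutrophil markers correlated with Fgr at 0.42 and with Lyn at 0.32 over the same specimens, and at 0.46 and 0.26 within groups. With the PI3K inhibitor 2 of 15 neutrophil markers were called lower and 0 higher, beside 5.82% and 4.84% of all tested genes. The neutrophil list summed to 107322 to 206452 CPM with the PI3K inhibitor, against 94283 to 120743 CPM with vehicle. Erythroid markers ran the other way, at -0.78 with Fgr and -0.68 with Lyn, and at -0.69 and -0.49 within groups. With the PI3K inhibitor 4 of 10 tested erythroid markers were called higher and 0 lower, beside the same shares of all genes (4.84% and 5.82%). The erythroid list summed to 2847 to 5717 CPM with the PI3K inhibitor, against 791 to 2974 CPM with vehicle. Calls of monocyte, neutrophil and erythroid markers ended with the length offset and with the Y-linked covariate, where edgeR called 0% of all genes. The defining erythroid genes Hba-a1, Hbb-bs and Hbb-bt were at 0 in all 12 specimens. The part of monocyte, neutrophil and erythroid transcripts in the Fgr and Lyn values was not tested.

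**Figure D5:**
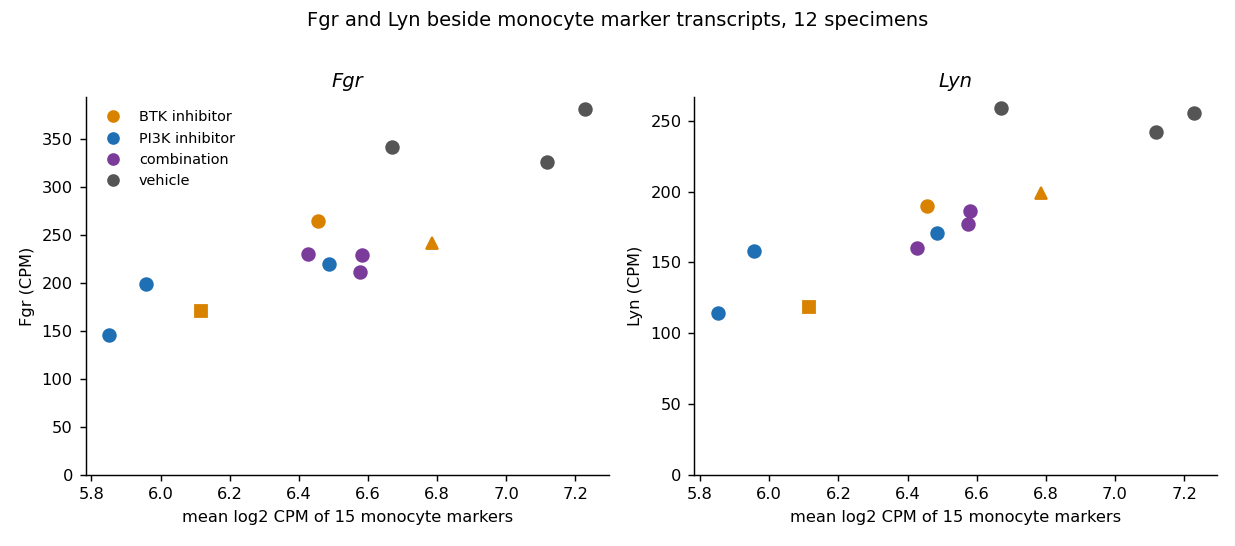
CPM of Fgr (left) and Lyn (right) against the mean log2 CPM of 15 monocyte markers, 1 point per specimen, coloured by group, with a square and a triangle for BTK inhibitor replicates 5 and 6. Specimens with lower monocyte markers tended to have less Fgr and Lyn, and the 3 vehicle specimens lie highest for both genes. The order was not strict: BTK inhibitor replicate 6 had higher monocyte markers (6.79) than vehicle replicate 2 (6.67) and less of both genes.

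Blk correlated with the mature B cell markers at 0.77 and with the B-lineage precursor markers at 0.62, and these lists had 0 of 11 and 0 of 12 markers called in each comparison with vehicle. The mature B cell markers summed to 610 to 869 CPM with the BTK inhibitor, 590 to 762 CPM with the PI3K inhibitor and 599 to 863 CPM with the combination, against 687 to 726 CPM with vehicle. The precursor markers summed to 1686 to 1919 CPM, 1678 to 2247 CPM and 1565 to 1829 CPM in the same order. With vehicle the precursor sums were 1110 to 1412 CPM, below every treated specimen. The mean log2 CPM of the precursor list did not show this separation. Vehicle replicate 3 stood at 4.53, above BTK inhibitor replicate 4 (3.85). It was also above every PI3K inhibitor specimen (3.90 to 4.06) and every combination specimen (3.92 to 4.16). BTK inhibitor replicates 5 (5.43) and 6 (5.11) lay higher. Vehicle replicates 1 (3.26) and 2 (3.35) lay below every treated specimen. Median log2 differences of the precursor markers from vehicle were 1.17 (BTK inhibitor), 0.28 (PI3K inhibitor) and 0.18 (combination). In that order 0, 4 and 4 of the 12 markers were below 0. The part of either list in the Blk and Lck values was not tested. Lck correlated with the B-lineage precursor markers at 0.73 and with the T cell markers at 0.31, and within groups at 0.58 and 0.63, which turns the order. Fyn correlated with the macrophage markers at 0.83 and with the monocyte markers at 0.72, and within groups at 0.78 and 0.71. With the length slope of the library Fyn correlated at 0.80, Lyn at 0.71, Fgr at 0.65 and Lck at -0.44. With the gene length offset the log2 difference between the PI3K inhibitor and vehicle was -0.22 for Fyn, beside the -0.72 of Fgr and the -0.56 of Lyn.

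Csk, the kinase that restrains the family, averaged 218 ± 44.9 CPM with the BTK inhibitor, 235 ± 7.19 with the PI3K inhibitor and 216 ± 3.85 in the combination group, against 252 ± 1.88 CPM with vehicle. All 9 treated specimens were below the lowest vehicle specimen here too, by a small margin, with the highest treated specimen at 246 CPM and the lowest vehicle specimen at 249.9 CPM. The share of all genes with this pattern was not counted. Taking each treatment alone, 18.5% (BTK inhibitor), 51.2% (PI3K inhibitor) and 18.8% (combination) of all genes did not overlap vehicle, in either direction. Its largest log2 difference from vehicle was -0.22 ± 0.22, with the combination, and edgeR adjusted p-values were 0.561 or more.

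Among 25 tested enzymes and anchors that set the activity of these kinases, 4 were called lower and 0 higher with the PI3K inhibitor, with a median log2 difference of -0.42. For this list and those that follow, 5.82% of all tested genes were called lower, and no list was tested against them. The 4 called enzymes and anchors were Cbl, a ubiquitin ligase of activated receptors and kinases, Pag1, the membrane anchor of CSK, and the phosphatases Ptpre and Ptpn1. Pag1 averaged 45.02 ± 11.2 CPM with the PI3K inhibitor and 139 ± 33.0 CPM with vehicle, a log2 difference of -1.63 ± 0.32 (edgeR adjusted p = 0.0388). Cbl averaged 8.29 ± 4.11 CPM with the PI3K inhibitor and 106 ± 49.6 CPM with vehicle, a difference of -3.67 ± 0.72 (edgeR adjusted p = 0.0388). Ptpre, which can remove the inhibitory tail phosphate, averaged 62.8 ± 16.2 CPM with the PI3K inhibitor and 139 ± 21.6 CPM with vehicle, a difference of -1.15 ± 0.27 (edgeR adjusted p = 0.0403). The edgeR count with the BTK inhibitor was 0 of 25 (median -0.33), where Pag1 and Ptpn1 had the smallest p, and with the combination it was 0 of 25 (median -0.33), where Ptpn6 (SHP1) and the adaptor Sla had the smallest p.

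Of 41 tested kinases, adaptors and effectors downstream, 5 were called lower and 0 higher with the PI3K inhibitor, with a median log2 difference of -0.54. Gab2, an adaptor that Fyn phosphorylates in mast cells and that binds both PI3K and SHP2, averaged 15.8 ± 3.82 CPM with the PI3K inhibitor and 35.7 ± 7.14 CPM with vehicle, a difference of -1.18 ± 0.28 (edgeR adjusted p = 0.0406). Inpp5d (SHIP1), which removes the lipid product of PI3K, averaged 89.9 ± 17.5 CPM with the PI3K inhibitor and 193 ± 56.5 CPM with vehicle, a difference of -1.10 ± 0.29 (edgeR adjusted p = 0.0408). The others were the adhesion adaptors Nedd9 (-0.84) and Pxn (-1.27) and the phospholipase Plcg2 (-1.33). With the BTK inhibitor 0 of 41 were called (median -0.32), and Pxn (-1.16) and Lat2 (0.95) had the smallest p. With the combination 0 of 41 were called (median -0.24), and Nedd9 (-0.54) and Lcp2 (-0.61) had the smallest p.

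Of 25 tested activating receptors, 2 were called lower and 0 higher with the PI3K inhibitor, with a median log2 difference of -0.26. Itgam (CD11b), the integrin chain through which Fgr signals in phagocytes, averaged 574 ± 170.1 CPM with the PI3K inhibitor and 1361 ± 161 CPM with vehicle, a difference of -1.24 ± 0.31 (edgeR adjusted p = 0.0407). Csf3r, the G-CSF receptor, with which Lyn associates, averaged 239.8 ± 39.04 CPM with the PI3K inhibitor and 623 ± 125 CPM with vehicle, a difference of -1.38 ± 0.36 (edgeR adjusted p = 0.0407). Of 21 inhibitory ITIM receptors, 1 was called lower and 0 higher (median -0.36). The counts of both receptor lists lie near the 5.82% of all genes. The called ITIM receptor was Cd33, a sialic acid receptor of myeloid cells, at 71.1 ± 14.6 CPM with the PI3K inhibitor and 212 ± 23.8 CPM with vehicle (log2 -1.58 ± 0.28, edgeR adjusted p = 0.0388). In both receptor lists edgeR called 0 genes under the BTK inhibitor and 0 under the combination. The receptors with the smallest p with the BTK inhibitor were the B cell chain Cd79b (log2 1.20), Csf3r (-1.08), Cd33 (-1.005) and Lilrb4a (-1.46), and with the combination Fcgr4 (-1.10), Trem1 (-0.66), Pilra (-0.67) and Pirb (-0.63). Of these Cd79b with the BTK inhibitor and Fcgr4 and Pirb with the combination overlapped vehicle.

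All 12 genes called over the 4 lists were lower, and 11 of them have an exon length above the median of tested genes, 2835 bases. How many of the other list genes, or of all genes called lower, are longer than this median was not counted. With the gene length offset, and likewise with the Y-linked covariate, edgeR called 0 genes lower in all 4 lists. The count was also 0 in all 4 lists when the specimen left out was any vehicle or combination specimen or PI3K inhibitor replicate 8 or 9. In every one of these fits 0% of all genes and 0 of the 7 members were called, so the loss was not particular to the lists. Without BTK inhibitor replicates 5, 6 and 4 and PI3K inhibitor replicate 7, edgeR called 33.8%, 26.2%, 10.2% and 14.7% of all genes. These shares take both directions together, while the list counts that follow are of genes called lower. Without BTK inhibitor replicate 5 the count was 11 of the regulators and 20 of the downstream genes, and without replicate 6 it was 7 and 16. Without BTK inhibitor replicate 4 it was 4 and 2, and without PI3K inhibitor replicate 7 it was 6 and 5. The activating receptors numbered 5, 3, 2 and 3 without BTK inhibitor replicates 5, 6 and 4 and PI3K inhibitor replicate 7, and the ITIM receptors 5, 3, 1 and 1.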

How the data were processed

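Libraries were made from marrow mononuclear cell RNA with a SMART-Seq v4 low-input kit and Nextera XT, per the labels' protocols, a preparation that does not mark strand. Reads were aligned with STAR and counted with featureCounts on mm10, per the submitters' processing notes, with versions not given in the sources used here. Unnormalized counts were deposited by the authors, 1 whole number per gene and specimen. There are 12 count columns, 1 per specimen number, while 24 samples are listed. Specimens were grouped by the labelled treatment, and no per-sample column was unused. No pair of replicates agreed within sampling noise (chi-square over its degrees of freedom, 21.7 to 670.5), so none was treated as a library deposited in duplicate.

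Counts were fitted in R 4.3.3 with edgeR 4.0.16: filterByExpr by group (smallest count 10, total count 15), TMM scaling, and a robust quasi-likelihood fit over all 12 specimens tested at a Benjamini-Hochberg adjusted p under 0.05 over 12742 genes. Standard errors come from the F statistic. CPM is relative to each specimen's tested-gene total times its TMM factor, and log2 CPM adds a prior count of 2. Correlations are Pearson's r of log2 CPM.

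Alternatives were DESeq2 1.42.0, limma 3.58.1 (voom, quality weights), RLE and upper quartile scaling, no filter or a stricter one (at least 1 CPM in 6 specimens), an offset for gene length (per library, natural spline of 5 df), Rn45s or hemoglobin genes removed, a covariate for Y-linked transcripts above 10 CPM, fits on the compared groups only, and fits with each specimen removed. The fit was tested on simulated counts.

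The 7 members, the pathway and marker lists and the tests were chosen with earlier results of these data known. Named pathway genes are up to 3 called genes with the smallest p per list and comparison with vehicle, or otherwise the 2 with the smallest p, and Csk. Ptpn1, Plcg2 and Pxn with the PI3K inhibitor were named after their values were seen, to complete the counts. A few genes of the lists are not reported here by name. Their values under the alternatives were added after the data were seen.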

Additional observations from a re-analysis of the deposited data

How the results depend on the processing

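No paired analysis was possible because the groups share no specimen numbers. Over 991 recomputed log2 differences of the members, 921 kept their direction and their side of the threshold and 44 changed direction, in 14 of 42 results, none of them called. The cause was not tested for any of them. The log2 differences of Fgr and Lyn from vehicle were below 0 under every alternative. With the PI3K inhibitor against vehicle, 1 member was called as reported, 2 were called by DESeq2, by limma voom, with only the groups compared, and with the length offset and no BTK inhibitor replicate 5, and 0 with no filter, with the length offset alone and with the Y-linked covariate. Leaving out 1 specimen gave 0 to 2. Limma voom called 2 members with the combination against vehicle, 1 with the combination against the BTK inhibitor, 3 for the interaction and 3 for any difference, and DESeq2 called 1 and 2 in these last tests. Leaving out 1 specimen gave 0 to 1 called members with the BTK inhibitor against vehicle, for the interaction and for any difference. Over all genes, calls with the PI3K inhibitor against vehicle ranged from 0 to 4761 over the alternatives, and with the BTK inhibitor against vehicle from 0 to 3809.

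The values that changed direction were these. Between the BTK inhibitor and vehicle, Src was -0.93 with limma voom, -0.093 with the Y-linked covariate and -0.55 to 0.58 leaving out 1 specimen, Yes1 -0.28 to 0.80, and Blk -0.061 to 0.89. Csk was 0.057 with the length offset and no BTK inhibitor replicate 5. Between the PI3K inhibitor and vehicle, Yes1 was -1.42 to 0.20 leaving out 1 specimen, and Csk 0.081 with the length offset and 0.077 with the offset and without that replicate. Between the combination and vehicle, Lck was 0.11 with limma voom and -0.13 to 0.068 leaving out 1 specimen. Between the combination and the BTK inhibitor, Fgr was 0.0035 with no filter and -0.17 to 0.12 leaving out 1 specimen. Lyn was -0.055 with limma voom, -0.18 with the length offset, -0.31 with the offset and no BTK inhibitor replicate 5, and -0.15 to 0.17 leaving out 1 specimen. Fyn was -0.17 with that offset and no replicate 5 and -0.017 to 0.74 leaving out 1 specimen. Yes1 was -0.10 with limma voom and -0.049 with the length offset, Blk 0.46 with limma voom and -0.42 to 0.48 leaving out 1 specimen, and Src -0.023 to 1.11 leaving out 1 specimen. Between the combination and the PI3K inhibitor, Src was -0.14 with the length offset with or without that replicate and -0.083 to 0.35 leaving out 1 specimen. For the interaction, Src was -0.44 with the length offset, -0.28 with the offset and no replicate 5 and -0.39 to 0.74 leaving out 1 specimen, and Blk was 0.31 with limma voom and -0.64 to 0.31 leaving out 1 specimen.

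Leaving out hemoglobin genes changed no value, since none of them passed the filter. With 3 specimens per group, and 2 to 15 counts for Yes1 and 7 to 59 for Src, the depth limits what can be detected for these low members.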
